A study of Mus musculus with 9 samples.

Results

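Cells after 7 days of differentiation (late differentiation) were compared with proliferating neurospheres (proliferation), both cultured from stem and progenitor cells that were isolated from the dentate gyrus of adult mice. Total RNA was measured on Illumina bead arrays of the mouse genome, and the comparison used 6 of the 9 arrays of the series, 3 per stage, which shared 1 BeadChip, and the 3 arrays of day 2 stood on another. A probe was kept where its detection p-value was below 0.05 on 3 or more of these 6 arrays, which left 19476 of 45281 probes and 10443 named genes. The late cells were a monolayer on poly-D-lysine and laminin in differentiation medium without EGF and bFGF, and the proliferating cells were floating spheres in medium with both mitogens and heparin. Time, mitogen withdrawal and attachment therefore cannot be told apart. The donors were adult male C57BL6 mice, the arrays of a stage were labelled as biological replicates, and whether they came from separate animals was not given, so the p-values measure the spread between these samples.

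Neurospheres are clusters of dividing neural progenitors kept in cycle by EGF and FGF2, which act through receptor tyrosine kinases and the ERK pathway. When both factors are withdrawn and the cells attach, they leave the cell cycle and become astrocytes, with fewer neurons and oligodendrocytes. Adult hippocampal stem cells share many genes with astrocytes, and quiescent ones express few cell cycle genes. In bulk RNA, fewer cells of a type and less RNA per cell cannot be told apart.

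The stage separated the arrays more than anything else measured. The first principal component carried 85.0% of the variance and set the late arrays (59.26 to 60.79) against the proliferation arrays (-61.84 to -57.57). Replicate 2 of late differentiation stood apart on the second component (6.04% of the variance, 30.45 against -18.44 and -12.14 in the other late arrays) and replicate 3 of proliferation on the third (4.20%, 24.54 against -12.63 and -12.45 in the other proliferation arrays). Arrays of 1 stage correlated at 0.981 to 0.989 in late differentiation and at 0.987 to 0.993 in proliferation. Each array detected 18310 to 19919 probes. The mean signal was 172.5 to 179.7 on the late arrays and 217.7 to 227.5 on the proliferation arrays, a difference that quantile normalization removed. Levels below are normalised log2 intensities, and a difference is late differentiation minus proliferation on that scale, with the standard error of the fit (SE, n = 3 per stage). All changes are relative to the median gene, which stood at 0.00 after normalization and at -0.35 without normalization between arrays.

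Of the 10443 genes, 36.4% were called, at a limma adjusted p under 0.05 and a fold of at least 1.5. In late differentiation 1974 (18.9%) were higher and 1825 (17.5%) lower. These shares of all genes are to be set beside the counts of every gene list below. Changes of over 4-fold were seen for 268 higher and 254 lower genes. The 3 late values and the 3 proliferation values did not overlap for 63.6% of genes. Higher genes made up 52.0% of the calls, and 21.4% without normalization between arrays, where 1012 were higher and 3728 lower. No gene was called in opposite directions by these settings.

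**Figure D1:**
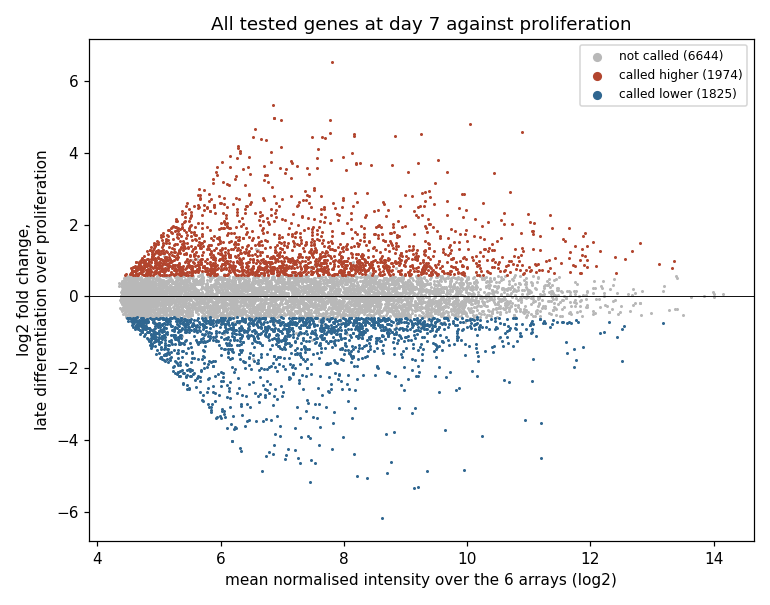
The log2 fold change of late differentiation over proliferation (vertical) of each of the 10443 tested genes against its mean log2 intensity over the 6 arrays (horizontal), with 1974 genes called higher, 1825 called lower and the rest not called. Changes run in both directions over the whole range of levels, and the wedge at the dim end is set by the floor of detection.

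The largest rise among named genes was that of Ahnak, a giant scaffold protein under the plasma membrane that binds annexin A2 and S100a10. Its level was 10.948, 11.003 and 11.266 in late differentiation, against 4.374, 4.299 and 4.948 in proliferation (6.53 ± 0.18, adjusted p = 3.72e-07), and its other 2 probes, undetected in proliferation, were at least 26.9-fold and 6.31-fold higher. Proliferation arrays lay near background, with Ahnak detected on 1 of 3. Its partners changed less, Anxa2 by 1.03 ± 0.14 and S100a10 by 0.62 ± 0.19 (adjusted p = 0.0243), and the stages overlapped for S100a10 and not for Anxa2.

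Several genes were switched on. Ucma, a secreted cartilage matrix protein, was not detected on any proliferation array and was at 9.16, 9.42 and 9.94 in late differentiation, at least 32.8-fold higher. Psd2, a guanine nucleotide exchange factor of Arf6 found in brain, was at least 29.2-fold higher, and Traf1, an adaptor of TNF receptors, at least 21.2-fold. All 3 late arrays were clear of the proliferation arrays for each of these genes, which the rule for naming the largest rises required. Kndc1, a brain Ras exchange factor that restrains dendrite growth, rose by 4.97 ± 0.12, and the pseudokinase gene Nrbp2 by 4.52 ± 0.11. Rises of similar size were those of the small heat shock protein Hspb8 (4.79 ± 0.24), the neurotensin receptor of astrocytes Ntsr2 (4.54 ± 0.17) and the proteoglycan Prelp (4.51 ± 0.23).

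Tnc showed the largest fall. It encodes tenascin-C, a matrix glycoprotein of stem cell niches, and was at 5.26, 5.97 and 5.37 in late differentiation, against 11.65, 11.38 and 12.07 in proliferation (-6.17 ± 0.23, adjusted p = 6.01e-07). No late array came within 5 log2 units of a proliferation array, and all 7 kept Tnc probes fell. Angpt2, a ligand of the endothelial receptor Tie2, fell by 4.82 ± 0.16, the kinase gene Prkcb by 4.91 ± 0.24 and Rab26, a small GTPase of secretory and synaptic vesicles, by 4.99 ± 0.21. Fbln2, which encodes the elastic fibre protein fibulin-2, was not detected in late differentiation and was at least 24.9-fold lower. The other 7 of the 12 largest falls belonged to the insulin-like growth factor binding proteins and to mitosis.

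**Figure D2:**
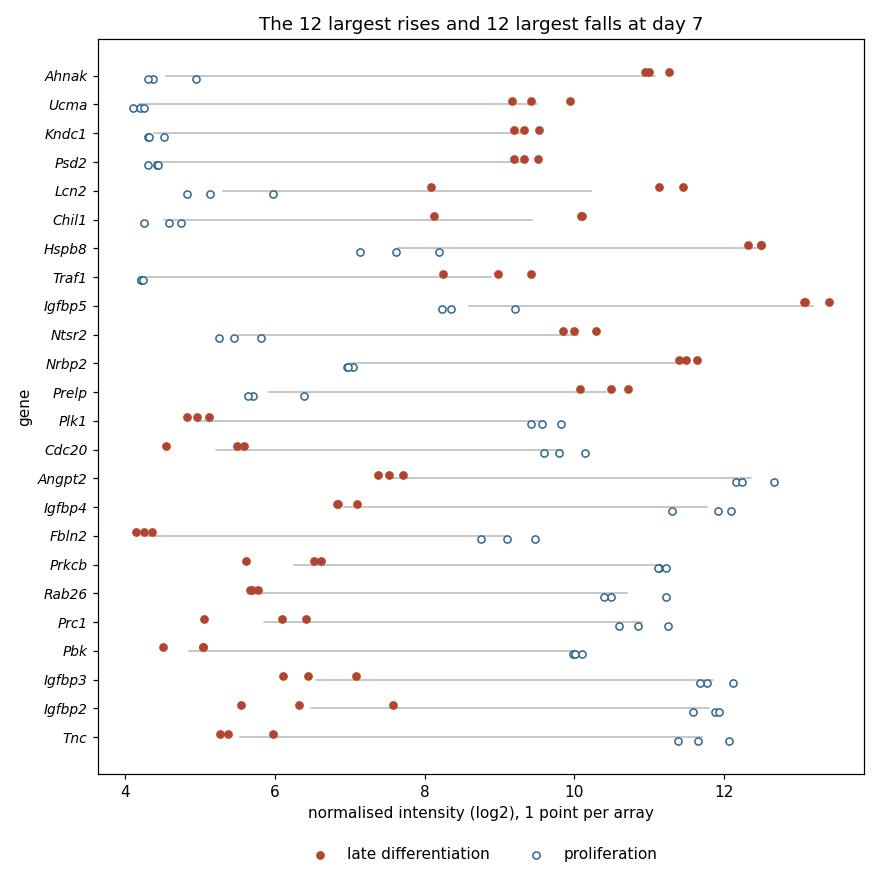
Normalised log2 intensity (horizontal) on each array of the 12 genes with the largest rises and the 12 with the largest falls, with late differentiation as filled and proliferation as open points, joined by a line between the stage means. The genes were chosen among those whose stages do not overlap, and Lcn2 and Chil1 have 1 late array well below the other late arrays.

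Genes of mitosis made up the most complete change. Of 45 tested genes of the spindle, the kinetochore and the mitotic kinases, 41 were lower, none was higher and the median difference was -2.69, beside 17.5% lower and a median of 0.00 over all genes. Of 55 such genes on the array, 44 were detected on all 3 proliferation arrays and 28 on all 3 late arrays. The probe filter keeps genes seen in 1 stage alone, which can differ only toward that stage, so the count rests in part on the filter. Cdk1, the kinase that starts mitosis, was at 4.77, 4.49 and 4.26 in late differentiation and at 8.75, 8.90 and 9.20 in proliferation (-4.44 ± 0.17). Late values of Cdk1 were near background, with 1 of 3 arrays detected. The microtubule bundler Prc1 fell by 5.05 ± 0.33, the kinase gene Pbk by 5.17 ± 0.16, the polo-like kinase Plk1 by 4.64 ± 0.14, the anaphase activator Cdc20 by 4.64 ± 0.27 and the cytokinesis motor Kif23 by 4.54 ± 0.16. Among the activators of these genes, Foxm1 fell by 2.37 ± 0.12 and Mybl2 by 1.79 ± 0.15. The 4 members that were not called were Bub3 (-0.45), Smc4 (-0.40), Spc24 (0.24) and Pttg1 (0.30). Replicate 3 of late differentiation was the lowest late array for 28 of the 45 (62.2%), beside 34.8% of all genes.

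Promoters of these genes shared a short sequence near their start. Many mitotic genes are repressed in resting cells through the cell cycle homology region (CHR, TTTGAA), often with CCAAT boxes upstream, which NF-Y binds. RefSeq promoters (250 bases before to 50 after the start, GRCm38.p6) were held for 35 of the 41 lowered genes, at 39 starts. The CHR letters, on either strand, were found at 28 starts (71.8%), beside 11.5% of the promoters of tested genes and 17.9% of all 32851 promoters. In 26 of them (66.7% of the 39) the nearest match began within 50 bases of the start, as it did in 2.84% of the promoters of tested genes. CCAAT was found in 74.4%, beside 38.1% and 37.4%, and both motifs together in 61.5%, beside 4.68% of the promoters of tested genes. The stretches around both motifs are shown for 5 genes with large falls, with TTTGAA and CCAAT or their reverse complements in capitals, written along the gene's strand. They lie at chr7:80294399-80294466 (plus strand) for Prc1, chr4:118437332-118437411 (minus) for Cdc20, chr7:122159406-122159484 (plus) for Plk1, chr9:61946777-61946821 (minus) for Kif23 and chr10:69352868-69352987 (minus) for Cdk1.
Prc1: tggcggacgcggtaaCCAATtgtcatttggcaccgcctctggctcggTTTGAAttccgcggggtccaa
Cdc20: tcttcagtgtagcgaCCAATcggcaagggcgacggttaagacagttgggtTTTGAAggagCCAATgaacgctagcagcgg
Plk1: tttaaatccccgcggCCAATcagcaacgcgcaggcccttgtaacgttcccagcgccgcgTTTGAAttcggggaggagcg
Kif23: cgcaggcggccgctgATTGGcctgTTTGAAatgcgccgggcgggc
Cdk1: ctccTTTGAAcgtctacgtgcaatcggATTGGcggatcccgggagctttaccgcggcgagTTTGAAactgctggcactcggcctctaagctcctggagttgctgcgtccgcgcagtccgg
These matches describe the letters only, and binding was not measured.

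Genes that copy DNA fell less steeply but in the same direction. Of 38 genes of origin licensing and the replication fork 29 were lower and none higher, with a median of -1.32. Mcm5, a subunit of the replicative helicase, was at 6.20, 6.10 and 5.90 in late differentiation and at 9.30, 9.68 and 9.75 in proliferation (-3.51 ± 0.15). Clspn, a mediator of the replication checkpoint, fell by 3.60 ± 0.17, and falls were also seen for the helicase activator Mcm10 (-3.48 ± 0.12) and the licensing factor Cdt1 (-2.94 ± 0.10). Not every part of the machinery moved, and the single-strand binding subunit Rpa1 was at 11.29, 11.42 and 11.48 in late differentiation and at 11.17, 11.36 and 11.48 in proliferation. E2F factors bind sites such as TTCCCGC and TTGGCGC. Either was found, on either strand, in 13 of 28 promoters of the lowered genes (46.4%, 23 of 29 genes matched), beside 11.9% of the promoters of tested genes and 6.81% of all. Those of 3 helicase subunits and of Cdt1 are shown with these letters in capitals, at chr8:75109330-75109381 (plus strand) for Mcm5, chr8:122568018-122568064 (plus) for Cdt1, chr1:20820263-20820308 (minus) for Mcm3 and chr1:128359730-128359829 (minus) for Mcm6.
Mcm5: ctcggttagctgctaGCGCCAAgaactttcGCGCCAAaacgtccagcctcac
Cdt1: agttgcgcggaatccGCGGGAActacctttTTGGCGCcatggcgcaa
Mcm3: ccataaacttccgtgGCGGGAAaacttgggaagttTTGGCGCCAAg
Mcm6: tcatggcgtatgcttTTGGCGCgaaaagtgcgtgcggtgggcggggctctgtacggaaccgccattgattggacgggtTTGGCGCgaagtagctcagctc
Mcm6 fell by 2.18 ± 0.12, and Mcm3, not detected in late differentiation, was at least 4.28-fold lower.

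Supply of nucleotides and control of the G1 phase followed. Of 22 genes of nucleotide synthesis 17 were lower and none higher (median -1.08), among them thymidine kinase Tk1 (at least 16.3-fold), the folate enzyme Mthfd2 (-3.34 ± 0.14) and the ribonucleotide reductase subunit Rrm2 (-3.06 ± 0.15). Of 27 regulators of G1, 14 were lower and 2 higher (median -0.74). Ccnd1, which encodes cyclin D1, was at 8.93, 9.17 and 8.72 in late differentiation and at 13.37, 13.40 and 13.58 in proliferation (-4.51 ± 0.14). Its late values lay below every proliferation value by over 4 log2 units and were still far above background. E2f1 fell by 2.43 ± 0.12 and Rbl1, the pocket protein p107, by 2.27 ± 0.15. Restraints of the cycle changed less: Cdkn2b, an inhibitor of CDK4 and CDK6, rose by 1.35 ± 0.16, whereas Cdkn1a, the inhibitor p21, was at 0.22 (adjusted p = 0.207) and Cdkn1b, the inhibitor p27, at 0.27 (adjusted p = 0.704). Rb1 was higher by 0.70 ± 0.11, and by 0.17 without normalization between arrays, which is not a call.

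DNA repair genes were lower for 12 of 20 and higher for 3 (median -0.72). The uracil glycosylase Ung fell by 2.81 ± 0.12, the damage histone H2ax by 2.29 ± 0.14 and the helicase Blm by 2.02 ± 0.11. The damage sensor of ultraviolet lesions Ddb2 rose by 1.16 ± 0.16.

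Genes that report on EGF and FGF signalling, the mitogens taken away, were lower for 13 of 21 and higher for 1 (median -0.96). Dusp6, the phosphatase that switches ERK off, was at 8.33, 8.78 and 7.77 in late differentiation, against 12.09, 12.36 and 12.11 in proliferation (-3.89 ± 0.23). Spry4, a feedback inhibitor of receptor signalling, was at least 9.45-fold lower, and the ERK-driven transcription factor genes Etv5 (-3.63 ± 0.23) and Etv4 (-3.13 ± 0.14) also fell. The receptors themselves moved less: Egfr fell by 0.78 ± 0.12, while Fgfr1 was at -0.20 (adjusted p = 0.249) and Fgfr2 at 0.36 (adjusted p = 0.192), neither called. Emp1, a membrane protein, was the member that was higher (2.15 ± 0.74, adjusted p = 0.0388). Emp1 was at 8.26, 8.40 and 9.11 in late differentiation, against 5.31, 5.54 and 8.48 in proliferation, so that the stages overlapped through replicate 3 of proliferation. Without that array its difference was 3.17, and without any other array it was 1.58 to 2.31 and not called.

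Binding proteins of insulin-like growth factors changed in opposite directions. These secreted proteins hold IGFs in the medium and matrix. Igfbp2 was at 6.32, 7.57 and 5.55 in late differentiation and at 11.88, 11.94 and 11.58 in proliferation (-5.32 ± 0.43). Igfbp3 fell by 5.31 ± 0.24 and Igfbp4 by 4.85 ± 0.20. Igfbp5 was at 13.08, 13.07 and 13.40 in late differentiation and at 9.21, 8.23 and 8.35 in proliferation (4.59 ± 0.25), and Igfbp7 rose by 2.00 ± 0.34. None of these genes overlapped between the stages, which the rule for naming the largest changes required of all but Igfbp7. The receptor genes moved less, with Igf2r at -1.16 ± 0.14 and Igf1r at -0.39, which was not called.

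The machinery of growth fell with proliferation. Ribosome biogenesis genes were lower for 14 of 24 and higher for none (median -0.66), with Nop58 (-2.13 ± 0.22) and Nop56 (-1.38 ± 0.13), core proteins of box C/D snoRNPs, among them. Cytosolic ribosomal protein genes were lower for 23 of 38 (median -0.68), with Rpl13a at -1.97 ± 0.19 and Rpl4 at -1.57 ± 0.13. Many of these genes have processed copies in the genome that a probe can also read. Rpl23 was higher at its brightest probe (0.79 ± 0.17) and lower at another (-0.64), and the mean of its probes was at -0.09 (adjusted p = 0.396), so that no direction is given for it. Nuclear transport genes were lower for 16 of 22 and higher for none (median -0.90), among them the nucleoporin Nup210 (-2.60 ± 0.17) and the importin Kpna2 (-1.79 ± 0.14). Spliceosome and hnRNP genes were lower for 17 of 34 and higher for none (median -0.49), such as Hnrnpa1 (-1.31 ± 0.10). Levels of tRNA synthetase and ATF4 target genes were mixed, with 8 of 25 lower (32%) and 3 higher (12%), beside 17.5% and 18.9% of all genes.

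Few mitochondrial genes were called. Of 39 genes of oxidative phosphorylation 4 were lower and none higher, and the median was -0.27. Cytochrome c, Cycs, fell by 1.14 ± 0.11 and the complex III subunit Cyc1 by 1.11 ± 0.12. Leaving out replicate 3 of proliferation gave 9 lower members of the oxidative phosphorylation list in place of 4, replicate 2 of late differentiation 6, and omitting normalization between arrays 31.

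Cholesterol synthesis was lower as a pathway. Of 18 tested genes 10 were lower and none higher (median -1.15). Fdps, the farnesyl diphosphate synthase, was at 8.56, 8.55 and 8.47 in late differentiation and at 10.94, 10.84 and 10.54 in proliferation (-2.25 ± 0.13). Insig1, the sterol sensor that holds SREBP in the endoplasmic reticulum, fell by 1.98 ± 0.14, lanosterol synthase Lss by 1.97 ± 0.13 and Dhcr7, which makes cholesterol from 7-dehydrocholesterol, by 1.69 ± 0.12. The late arrays of Fdps were closer together than its proliferation arrays, and none overlapped. Lipid handling was split. The lipid carrier Apoe rose, with 12.38, 12.35 and 11.71 in late differentiation and 9.06, 8.61 and 8.47 in proliferation (3.44 ± 0.22), as did the phospholipid transfer protein Pltp (2.37 ± 0.13), while the fatty acid binding protein Fabp5 (-2.80 ± 0.31), lipoprotein lipase Lpl (-2.60 ± 0.16) and the elongase Elovl6 (-2.58 ± 0.17) fell. The sterol element TCACCCCAC, on either strand, was in 0 of 10 promoters of the lowered cholesterol genes (8 of 10 genes matched), beside 0.567% of the promoters of tested genes. At so low a share 10 promoters cannot show a lack of it, and shorter forms were not counted. CCAAT was in 8 of these 10 promoters (80.0%, beside 38.1%). Every Apoe value of late differentiation was above every proliferation value.

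Sugar metabolism changed in part. Of 23 genes of glycolysis and lactate 8 were higher and 4 lower, and without normalization between arrays 4 and 6. The brain glycogen phosphorylase Pygb rose by 3.15 ± 0.13 and the glucose transporter Slc2a1 by 2.48 ± 0.15, whereas lactate dehydrogenase Ldha fell by 1.37 ± 0.14 and the pyruvate kinase Pkm by 0.71 ± 0.12. With the mean of its probes Pkm was at -0.47 and not called. Pygb was at 10.85, 11.06 and 11.25 in late differentiation and at 7.81, 8.06 and 7.84 in proliferation, with no overlap.

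Lysosomal genes were higher for 11 of 40 (27.5%) and lower for 6 (15%), beside 18.9% and 17.5% of all genes. Ctsa, the protective protein of beta-galactosidase and neuraminidase, was at 10.18, 9.81 and 9.71 in late differentiation and at 5.59, 5.46 and 5.42 in proliferation (4.41 ± 0.14). Its other 3 kept probes were not called, so that the rise rests on its brightest probe. The sulfatase Arsb rose by 2.85 ± 0.10, and cathepsin B (Ctsb) by 1.52 ± 0.15. Cathepsin C (Ctsc) fell by 2.18 ± 0.23, acid lipase Lipa by 1.43 ± 0.25 and acid ceramidase Asah1 by 1.11 ± 0.11. The median of the list was 0.10, and -0.32 without normalization between arrays.

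**Figure D3:**
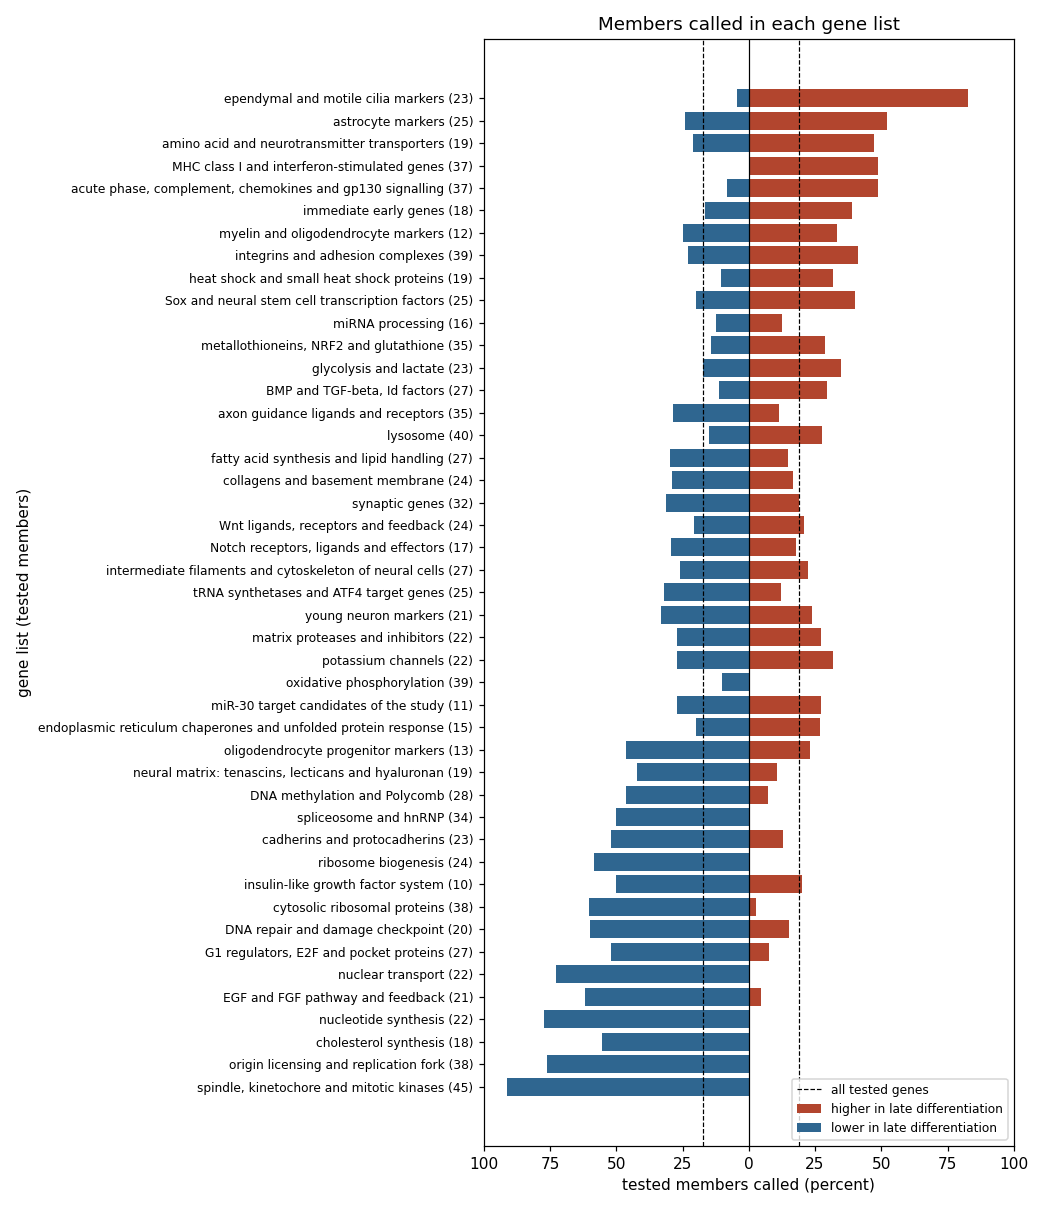
Percent of tested members of each gene list called higher (right) or lower (left) in late differentiation, for the lists with at least 10 tested members, ordered by the median log2 fold change, with the number of tested members in brackets and the shares over all tested genes (18.9% and 17.5%) as broken lines. Mitosis, replication, nucleotide synthesis and nuclear transport reach furthest to the left, and the motile cilia list reaches furthest to the right, with 82.6% of its members higher.

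Protein folding and metal and oxidant defence showed single large rises rather than whole pathways. Hspb8, which works with Bag3 in chaperone-assisted autophagy, was at 12.32, 12.50 and 12.49 in late differentiation and at 7.61, 8.19 and 7.13 in proliferation (4.79 ± 0.24). Cryab, the small heat shock protein alpha-B-crystallin, rose by 2.26 ± 0.26, while Hspb1 was at 0.29 and was not called. The mitochondrial chaperones moved the other way, Hspd1 by -1.29 ± 0.10 and Hspe1 by -1.15 ± 0.10. Heat shock genes as a list were higher for 6 of 19 (31.6%) and lower for 2 (10.5%). Endoplasmic reticulum chaperones were higher for 4 of 15 (26.7%) and lower for 3 (20%), beside 18.9% and 17.5% of all genes. Those counts were 5 and 6 for heat shock and 3 and 8 for the endoplasmic reticulum without normalization between arrays. Of the metallothioneins, which bind zinc and copper, Mt2 rose by 2.49 ± 0.21 and Mt3 by 2.40 ± 0.25, while Mt1, near the top of the range of intensities, was at -0.02. The thioredoxin inhibitor Txnip (3.57 ± 0.33) and the peroxidase Gpx1 (1.90 ± 0.17) rose. The NRF2 targets Nqo1 (-0.27), Hmox1 (-0.26) and Gclm (-0.38) were not called. Metal response elements (TGCGCNC or TGCACNC, on either strand) were in 3 of 14 promoters of the raised genes of this list (21.4%), below the 36.1% of the promoters of tested genes. These 3 were the promoters of Mt2, Mt3 and Txnip, so both raised metallothioneins named above held the letters.

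Matrix genes had members on both sides. Of 24 genes of collagens and basement membrane 7 were lower (29.2%) and 4 higher (16.7%), beside 17.5% and 18.9% of all genes. Of 22 proteases and inhibitors 6 were lower and 6 higher (27.3% each). Of 19 genes of tenascins, lecticans and hyaluronan 8 were lower and 2 higher (median -0.40). Besides Tnc, the lectican Ncan fell, with 4.84, 5.53 and 4.84 in late differentiation and 9.38, 9.17 and 9.46 in proliferation (-4.27 ± 0.19), and the heparan sulfate proteoglycan syndecan-3 (Sdc3) fell by 1.94 ± 0.23. Syndecan-2 (Sdc2) rose by 1.54 ± 0.16. Col18a1, the basement membrane collagen from which endostatin is cut, fell by 4.38 ± 0.31 and Col16a1 by 2.43 ± 0.15, whereas the basement membrane proteins Nid2 (2.30 ± 0.16) and Lamb2 (1.75 ± 0.25) rose. Among proteases, Adam12 was at least 15.5-fold lower. Of the inhibitors of metalloproteinases, Timp2 (2.06 ± 0.12) and Timp3 (1.48 ± 0.17) rose and Timp4 (-3.89 ± 0.33) and Timp1 (-1.98 ± 0.39) fell. Timp1 was lowest in replicate 3 of late differentiation (5.49, against 7.09 and 6.65).

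Adhesion shifted between receptors. Integrins and adhesion complex genes were higher for 16 of 39 and lower for 9, and without normalization between arrays for 8 and 15. The laminin receptor subunit Itga3 rose, with 8.35, 8.61 and 8.68 in late differentiation and 5.31, 5.53 and 6.41 in proliferation (2.80 ± 0.26), and Itgb4, not detected in proliferation, was at least 3.34-fold higher. Itgb1 fell by 1.18 ± 0.12. Itgav (-1.46 ± 0.23) and Itga6 (-0.97 ± 0.16) were called lower at their brightest probes and not with the mean of their probes (-0.35 and -0.12). The crosslinker alpha-actinin Actn1 rose by 2.18 ± 0.25 and annexin A5 (Anxa5) by 1.89 ± 0.22. Cadherins and protocadherins were lower for 12 of 23 and higher for 3 (median -0.63), such as Pcdh17 (-2.16 ± 0.32), with the planar polarity cadherin Celsr1 higher by 1.68 ± 0.12.

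Developmental signalling pathways had members on both sides. Id4, which blocks the DNA binding of basic helix-loop-helix partners and holds adult hippocampal stem cells in quiescence, was not detected in proliferation and was at 8.19, 8.31 and 8.63 in late differentiation, at least 15-fold higher. Smad1, which carries the BMP signal, rose by 1.04 ± 0.10, while Id2 (0.03) and Id3 (-0.17) were not called. The ligand Bmp7 fell by 1.70 ± 0.16 and the TGF-beta binding protein Ltbp1 by 2.65 ± 0.24. In the BMP and TGF-beta list 8 of 27 were higher and 3 lower, and without normalization between arrays 4 were higher and 10 lower. Of 17 Notch genes 3 were higher (17.6%) and 5 lower (29.4%), beside 18.9% and 17.5% of all genes. The effectors diverged, with Hey1 higher by 1.72 ± 0.14 and Hes1 lower by 1.93 ± 0.12. The feedback gene Nrarp fell by 2.56 ± 0.33, while Notch1 was at 0.10 and Dll1 at -0.12, neither called.

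Wnt genes were higher for 5 of 24 and lower for 5 (20.8% each, beside 18.9% and 17.5% of all genes), and without normalization between arrays for 1 and 8. Among them, the feedback target Axin2 was at 0.23, which was not called. The receptor Fzd1 fell by 1.60 ± 0.17 and the R-spondin receptor Lgr5 by 1.26 ± 0.16, and Fzd6 rose by 1.36 ± 0.14. Axon guidance genes were lower for 10 of 35 (28.6%) and higher for 4 (11.4%), beside the same shares of all genes. The semaphorin receptor Nrp1 was at 7.04, 6.01 and 6.11 in late differentiation and at 8.69, 8.61 and 8.38 in proliferation (-2.17 ± 0.25), and Sema5a fell by 1.94 ± 0.17. The semaphorin receptor Plxnb1 rose by 1.67 ± 0.12 and Sema6d by 1.54 ± 0.16. Among 6 Hedgehog genes the coreceptor Cdon fell (-1.89 ± 0.31).

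Transcription factors and chromatin genes of stem cells did not move as a block. Sox9, which drives glial and stem cell programmes, was at 12.87, 12.66 and 12.88 in late differentiation and at 11.04, 10.97 and 11.11 in proliferation (1.76 ± 0.11). Hopx, a homeodomain protein of quiescent hippocampal stem cells, rose by 3.05 ± 0.42 with a wide spread of late values (9.40, 8.18 and 7.48), and Prom1 was at least 4.68-fold higher. Sox11, a factor of young neurons and progenitors, fell by 2.04 ± 0.10 and the oligodendrocyte lineage factor Sox8 by 1.67 ± 0.18. Of 25 such genes 10 were higher and 5 lower, and without normalization between arrays 5 and 6. DNA methylation and Polycomb genes were lower for 13 of 28 and higher for 2 (median -0.48). Uhrf1, which recruits the maintenance methylase to replicated DNA, fell by 3.90 ± 0.17 and that methylase, Dnmt1, by 1.58 ± 0.17. The Polycomb methylase Ezh2 fell by 2.56 ± 0.26. Cbx7, a reader of its mark, rose by 1.61 ± 0.11.

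Astrocyte markers were higher for 13 of 25 and lower for 6 (median 0.81). Gfap, the intermediate filament of astrocytes and radial stem cells, was at 10.17, 9.75 and 9.21 in late differentiation and at 5.48, 5.28 and 5.01 in proliferation (4.45 ± 0.24). The water channel gene Aqp4 rose by 3.64 ± 0.36, with replicate 2 of late differentiation (7.54) below replicates 1 and 3 (8.97 and 9.04). Gja1, the gap junction protein connexin 43, rose by 1.49 ± 0.11. Other markers were level or lower: Aldh1l1 was at -0.32, Glul at 0.07, S100b at 0.48 and Slc1a3 at 0.51, none of them called, and the fatty acid binding protein Fabp7 of radial glia fell by 1.77 ± 0.14.

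Genes of motile cilia, the beating organelles of ependymal cells, rose most evenly of all lists examined. Of 23 tested genes 19 were higher and 1 lower, with a median of 2.18. Enkur, a protein of the ciliary axoneme, was at 8.90, 8.72 and 8.90 in late differentiation and at 4.30, 4.52 and 4.57 in proliferation (4.38 ± 0.12). The radial spoke gene Rsph4a was higher by at least 14.6-fold and the dynein light intermediate chain Dnali1 by at least 11.1-fold, both without a detected signal in proliferation. Nme5 rose by 3.85 ± 0.15 and the dynein light chain Dynlrb2 by 3.72 ± 0.15. The switch genes of this programme rose as well, Rfx2 by 2.87 ± 0.18, Rfx3 by 1.24 ± 0.12 and Foxj1 by 1.28 ± 0.11. Dnah11, an outer arm dynein heavy chain, was the exception, with 4.94, 5.17 and 4.68 in late differentiation and 7.78, 7.93 and 8.06 in proliferation (-2.99 ± 0.15). Replicate 2 was the lowest late array for 14 of the 23 genes (60.9%), beside 27.8% of all genes. Of 31 ciliary genes on the array 22 were detected on all 3 late arrays and 14 on all 3 proliferation arrays. The probe filter lets in genes seen in late differentiation alone, so the count of 19 rests in part on it.

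RFX factors bind X-boxes, of which GTTGCC is a part. On either strand it was found in 8 of 18 promoters of the raised ciliary genes (44.4%, 14 of 19 genes matched), beside 12.8% of the promoters of tested genes and 12.5% of all. It is shown in capitals for 5 of them, at chr2:21205379-21205414 (minus strand) for Enkur, chr8:116504949-116504984 (plus) for Dynlrb2, chr17:56831104-56831139 (minus) for Rfx2, chr11:72361877-72361932 (minus) for Tekt1 and chr19:28011117-28011150 (minus) for Rfx3.
Enkur: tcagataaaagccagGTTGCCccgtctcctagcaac
Dynlrb2: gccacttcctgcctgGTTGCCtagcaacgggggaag
Rfx2: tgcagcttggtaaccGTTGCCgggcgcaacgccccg
Tekt1: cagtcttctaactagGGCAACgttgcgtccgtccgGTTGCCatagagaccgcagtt
Rfx3: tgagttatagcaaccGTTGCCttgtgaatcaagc
Tekt1, a tektin of ciliary microtubules, rose by 2.86 ± 0.18.

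Oligodendrocyte genes were divided. Progenitor markers were lower for 6 of 13 and higher for 3. Olig1 was at 11.95, 11.66 and 11.22 in late differentiation and at 13.19, 13.52 and 13.52 in proliferation (-1.80 ± 0.19), Nkx2-2 fell by 2.56 ± 0.23 and Olig2 was at least 2.15-fold lower. Matn4, an extracellular matrilin, rose by 2.79 ± 0.21, and Gpr17, a receptor of committed precursors, was at least 2.32-fold higher. The mature markers Ermn, Gjc3, Mag, Mbp, Mobp, Mog and Myrf were detected on none of the 6 arrays. Of 12 tested myelin and oligodendrocyte genes 4 were higher and 3 lower, with Sirt2 (1.55 ± 0.11) and the phosphodiesterase Cnp (1.22 ± 0.25) higher and carbonic anhydrase Car2 (-1.56 ± 0.10) lower. Trf, the iron carrier transferrin, fell by 3.79 ± 0.70, and by 4.65 without replicate 1 of late differentiation.

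Neuronal genes were mixed. On all 3 late arrays 16 of 33 young neuron markers and 27 of 41 synaptic genes were detected, against 16 and 26 on all 3 proliferation arrays. Young neuron markers were higher for 5 of 21 (23.8%) and lower for 7 (33.3%), beside 18.9% and 17.5% of all genes. The collapsin response protein Dpysl5 was at 7.25, 7.97 and 7.82 in late differentiation and at 4.50, 4.66 and 4.60 in proliferation (3.10 ± 0.18), and Igfbpl1 rose by 4.16 ± 0.15. The growth cone protein Gap43 fell by 1.16 ± 0.21 and the adhesion molecule Ncam1 by 1.16 ± 0.12. Neuronal tubulin Tubb3 was at -0.03 and the granule cell factor Prox1 at -0.34, neither called. Synaptic genes were lower for 10 of 32 (31.2%) and higher for 6 (18.8%), the latter at the share of all genes. The kinase subunit Camk2b (-2.54 ± 0.15) and the vesicle protein Sv2a (-1.80 ± 0.29) were lower. The glutamate receptor gene Gria1 (2.52 ± 0.32) was higher. The transmitter transporter genes Slc17a6, Slc17a7 and Slc32a1 and the release protein Snap25 were detected on no array. Potassium channel genes were higher for 7 of 22 (31.8%) and lower for 6 (27.3%), and without normalization between arrays for 3 and 9. Kcna6 (2.49 ± 0.25) and the leak channel Kcnk2 (1.26 ± 0.19) were higher and Kcnip3 (-1.72 ± 0.17) was lower.

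**Figure D4:**
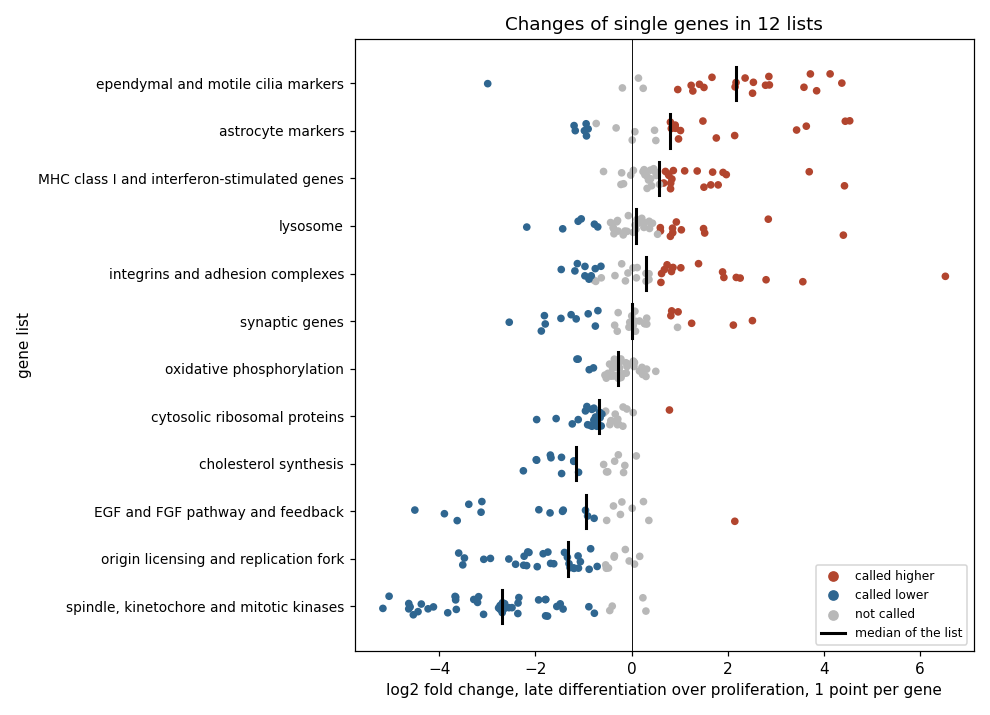
Log2 fold change of late differentiation over proliferation (horizontal) of each tested gene in 12 of the lists, coloured by call, with the median of a list as a black bar. The medians run from 2.18 for motile cilia markers to -2.69 for mitotic genes, while the synaptic and lysosomal genes spread on both sides of 0, where their medians were 0.02 and 0.10 as plotted and -0.31 and -0.32 without normalization between arrays.

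Genes of antigen presentation and of the interferon response were higher for 18 of 37 and lower for none (median 0.58). Ifit3, an RNA-binding antiviral protein, was at 9.92, 9.96 and 9.70 in late differentiation and at 5.52, 5.58 and 5.18 in proliferation (4.43 ± 0.14). The guanylate binding protein Gbp2 rose by 3.70 ± 0.27, the immunity GTPase Igtp by 1.97 ± 0.12 and the peptide transporter Tap2 by 1.90 ± 0.15. The class I heavy chain H2-D1 rose by 1.69 ± 0.21, though probes of class I genes can read more than 1 of them, and the light chain B2m was at -0.02. Other interferon targets stayed near background or level, with Isg15 at 0.04 and Ifit1, Irf7, Mx1 and Oas1a detected on no array. Interferon-stimulated response elements hold GAAA, any 2 bases and GAAA, a pattern found in 6 of 19 promoters of the raised genes (31.6%, 15 of 18 genes matched), beside 2.71% of the promoters of tested genes and 3.44% of all. It is in capitals for the 3 with the largest rises, at chr19:34583358-34583431 (plus strand) for Ifit3, chr3:142620589-142620628 (plus) for Gbp2 and chr11:58199507-58199546 (plus) for Igtp.
Ifit3: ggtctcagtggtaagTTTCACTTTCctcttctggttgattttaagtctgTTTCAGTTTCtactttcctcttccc
Gbp2: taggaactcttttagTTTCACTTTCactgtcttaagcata
Igtp: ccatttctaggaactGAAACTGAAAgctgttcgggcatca

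Acute-phase, complement and cytokine genes were higher for 18 of 37 and lower for 3 (median 0.55). Lcn2, the iron-siderophore binding lipocalin-2 of reactive astrocytes, was at 11.45, 11.13 and 8.09 in late differentiation and at 5.13, 5.97 and 4.83 in proliferation (4.92 ± 0.79, adjusted p = 0.00109). Replicate 3 was the lowest late array, and the difference was 5.98 without it and 4.30 without replicate 1. The same array was lowest for the chitinase-like protein Chil1 (10.09, 10.10 and 8.12, a difference of 4.92, and of 5.57 without it) and for the protease inhibitor Serpina3n (11.83, 11.25 and 9.24, a difference of 3.46, and of 4.22 without it). The complement genes were steadier, with C4b at 9.75, 9.75 and 9.58 in late differentiation and at 5.97, 5.83 and 5.86 in proliferation (3.81 ± 0.10), and the complement inhibitor Cd59a rose by 3.71 ± 0.19. Of the gp130 receptors, the shared chain Il6st rose by 2.44 ± 0.17 and the oncostatin M receptor Osmr by 2.29 ± 0.30, and the feedback inhibitor Socs3 by 1.53 ± 0.37. Stat3, which these receptors activate, was at -0.28 and was not called.

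Replicate 3 was the lowest late array for 25 of the 37 acute-phase genes (67.6%), 27 of the 37 interferon and class I genes (73.0%) and 14 of 18 immediate early genes (77.8%), beside 34.8% of all genes. Over the tested members, the mean level of the acute-phase list was 7.42, 7.40 and 6.85 on the late arrays and 6.23 to 6.29 on the proliferation arrays, and that of the immediate early list 7.47, 7.14 and 6.51 on the late arrays and 6.81 to 6.89 on the proliferation arrays. The acute-phase list was thus above proliferation on each late array, whereas the immediate early list was below it on replicate 3. The immediate early gene Fos was at 10.71, 10.25 and 8.74 in late differentiation and at 8.13, 7.48 and 8.32 in proliferation (1.93 ± 0.46), and Egr1 was at 12.17, 11.30 and 10.06 in late differentiation, against 11.57, 11.59 and 11.92 in proliferation, and was not called.

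**Figure D5:**
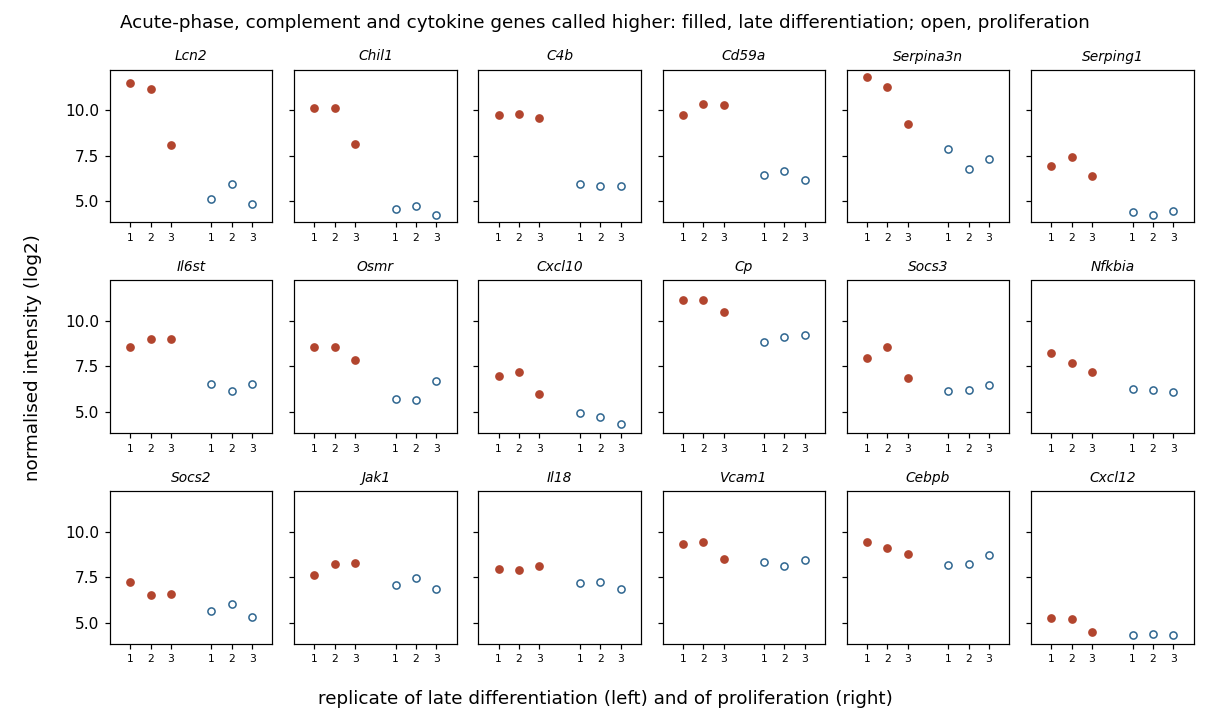
Normalised log2 intensity (vertical) by replicate of the 18 acute-phase, complement and cytokine genes called higher, with the late arrays as filled points on the left and the proliferation arrays as open points on the right of each panel. Replicate 3 of late differentiation is well below the other late arrays for Lcn2, Chil1 and Serpina3n and close to them for C4b.

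Few markers of other cells were detected. A probe without a signal does not show that its transcript was absent. The widely expressed genes Sdha, Canx, Rpl6, Rps20 and Rps23 were also detected on none of these arrays. Of 18 microglial and macrophage markers on the array 13 were detected on none of the 6 arrays, among them the complement genes C1qa, C1qb and C1qc and Cx3cr1, Itgam, P2ry12, Ptprc, Trem2 and Tyrobp. Cd14 was the only tested member, at 7.68, 7.67 and 5.68 in late differentiation and at 5.14, 5.45 and 4.72 in proliferation (1.90 ± 0.50, and 2.57 without replicate 3 of late differentiation). Of 16 endothelial and mural markers 3 were tested, and Cdh5, Cldn5 and Pecam1 were detected on no array. Acta2, smooth muscle actin, rose by 2.26 ± 0.32. Of 16 fibroblast markers 2 were tested, and Col1a1, Col1a2, Col3a1 and Lum were detected on no array.

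The 4 genes that the study used to mark its stages gave mixed values on these arrays. The paper measured them by RT-qPCR relative to G6pdh and Tbp, a different measure, and reported that their levels matched the stages. Besides Gfap, the stem cell factor Sox2 was called higher, with 7.50, 6.83 and 7.39 in late differentiation and 6.35, 6.33 and 6.60 in proliferation (0.81 ± 0.18, and 0.33 without normalization between arrays, which is not a call). Nes, which encodes the progenitor filament nestin, was at 9.63, 9.78 and 9.39 in late differentiation and at 9.51, 9.78 and 9.80 in proliferation (-0.09 ± 0.14). Its arrays overlapped, and without normalization between arrays it was called lower (-0.63, limma adjusted p = 0.00519). Dcx, which encodes doublecortin, a microtubule protein of young neurons, had no detected signal in proliferation and was at 5.01, 4.84 and 4.65 in late differentiation, at least 1.28-fold higher. Its fitted difference of 0.61 lay just above the 1.5-fold minimum. The call was lost without replicate 1 of late differentiation or replicate 3 of proliferation, where it was under that minimum. It was also lost without normalization between arrays (0.52), with an offset of 50 (0.25), with all 9 arrays (0.58), with the mean of its probes (0.46) and in the deposited value table, where Dcx was at 0.003 (adjusted p = 0.769). The reference genes Tbp (-0.06 ± 0.11) and Gapdh (-0.38 ± 0.10) were not called, and without normalization between arrays Gapdh was at -0.96 and was.

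Candidate targets of the miR-30 family, which the study chose in part on these arrays, were higher for 3 and lower for 3 of 11 tested. The candidates pool genes chosen as rising in the dentate gyrus of defeated mice and genes chosen as falling in culture, with Nrp1 in both. Nrp1, Omg, an inhibitor of neurite growth in myelin (-1.28 ± 0.12), and Rcor1, the corepressor CoREST (-1.07 ± 0.12), fell, all from the set chosen as falling in culture. Osmr, Socs3 and the interferon gamma receptor Ifngr1 (1.03 ± 0.12) rose, all chosen only for their rise in defeated mice. Ifngr1 was at 0.57 without normalization between arrays, which is not a call, and the call of Socs3 was lost in the deposited value table (adjusted p = 0.0642), without the detection filter (adjusted p = 0.0509) and in the methods' t-test after Benjamini-Hochberg adjustment (adjusted p = 0.081). Ppp3r1 (-0.33), Adgra3 (-0.55), Kmt2c (-0.22), Runx1 (-0.41) and Khnyn (0.02) were not called. By RT-qPCR the paper reported Nrp1, Omg, Rcor1, Ppp3r1, Adgra3 (named Gpr125) and Kmt2c (named Mll3) lower in differentiating cells. The paper also reported Socs3, Ifngr1, Osmr and Khnyn higher in them, and Runx1 lower at the early stage. The balance depended on normalization: without normalization between arrays 2 candidates were higher and 6 lower, with Ppp3r1 (-0.87), Adgra3 (-1.07) and Kmt2c (-0.74) called lower. Because the study chose the candidates in part on these arrays, the direction of the list is not independent evidence. Of 16 miRNA processing genes 2 were higher and 2 lower (12.5% each, beside 18.9% and 17.5% of all genes). Without normalization between arrays the counts were 1 and 5. Dicer1 was at 0.39, Drosha at 0.51 and Dgcr8 at -0.52, each under the 1.5-fold minimum.

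Spread among replicates was small for most genes, with a median standard deviation of 0.14 in late differentiation and 0.13 in proliferation. In late differentiation 421 genes spanned over 1 log2 unit, and the array farthest from the other arrays was replicate 2 for 256 of them, replicate 3 for 126 and replicate 1 for 39. In proliferation 239 genes did so, with replicate 3 farthest for 195. The widest was Xlr4a, a gene of an X-linked multicopy family, at 4.28, 8.61 and 4.87 in late differentiation and at 4.31, 7.60 and 4.37 in proliferation. It was high in replicate 2 of both stages. Eif4ebp2, a repressor of cap-dependent translation, was at 7.86, 5.56 and 8.31 in late differentiation, against 7.83, 8.02 and 7.57 in proliferation, and Srpx2 at 5.13, 7.33 and 4.48 in late differentiation, against 4.40, 4.41 and 4.72 in proliferation. Neither was called. The potassium channel gene Kcnc4 was at 5.55, 5.23 and 4.97 in late differentiation, against 8.65, 8.25 and 6.13 in proliferation (-2.43 ± 0.57, and -3.21 without replicate 3 of proliferation). Masp1, a protease of the lectin pathway of complement, was at 5.21, 6.02 and 5.04 in late differentiation, against 8.45, 9.19 and 6.36 in proliferation (-2.57 ± 0.63). Its difference was -3.39 without replicate 3 of proliferation and -1.98 without replicate 2.

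Of 4042 genes with several kept probes, 1567 were called at their brightest probe, and for 985 of these another probe was called the same way. For 20 genes probes were called in opposite directions. They included Actb, whose brightest probe was at 0.43 and was not called while others were at 1.06 and -1.32, Rpa2 (0.70 and -0.88) and Hnrnpa2b1 (0.60 and -1.25).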

How the data were processed

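Total RNA of cultured neural stem and progenitor cells was hybridised to Illumina MouseWG-6 v2.0 arrays. The deposited table held the intensity of each probe, exported by the authors from GenomeStudio without background subtraction or normalization between arrays, with a detection p-value per probe and array that the authors' software gave. The deposited value table proved to be the same intensity after background subtraction, scaled by a single factor on each array, and served as an alternative. The annotation paired 34885 of the 45281 probes with 1 gene symbol and 18 with several, and left 10378 without any.

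Intensities of the 6 arrays underwent normexp background correction guided by the detection p-values in limma 3.58.1 under R 4.3.3 (offset 16, which compresses folds of dim probes) and were then quantile normalized and expressed as log2. A linear model of stage was fitted with lmFit and eBayes, and p-values were adjusted by Benjamini-Hochberg over all kept probes. Where a gene had several kept probes, the brightest on average stood for it. A probe with a detection p-value of 0.05 or more on all 3 arrays of a stage was treated as dim there, and "at least" folds were computed after raising its values in that stage to the lowest level of a detected probe on each array. Precision is limited by having 3 arrays per stage. In data simulated from these arrays, 46 of 50 probes were called correctly at a log2 change of -2 and 46 of 50 at 2, against 39 of 50 at -1 and 34 of 50 at 1, and 9 of 19276 unchanged probes were called. Far more probes changed in the real data, where 3195 were called higher and 3204 lower. The Benjamini-Hochberg cutoff depends on that share, so the simulated rates do not carry over to the real calls.

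Named genes were the 12 largest rises and 12 largest falls that did not overlap, up to 4 called members per list and direction, the study's markers and candidates, Gapdh and Tbp, and the 6 widest ranges per stage. Other genes named in the text were list members chosen after their values were seen. The members, the 50 gene lists (1113 of 1573 genes tested) and the motifs were chosen with earlier results of these data known. Alternatives covered normalization, offset, filters, probe choice, the methods' t-test and the arrays left out. Promoters were matched to genes by symbol (8502 of 10443).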

Additional observations from a re-analysis of the deposited data

Results flagged for a closer look

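Signals outside the comparison of named genes were found in 3 places. Among the 3092 kept probes without a single gene symbol, 496 were higher and 475 lower in late differentiation (31.4% called, against 36.4% of genes). The largest rise of all was 1 of these probes, ILMN_2759484, at 12.75, 12.75 and 11.44 in late differentiation and at 4.62, 4.66 and 4.49 in proliferation (7.72 ± 0.32). The largest fall among them was that of ILMN_2753497, at 4.70, 4.40 and 4.24 in late differentiation and at 9.23, 9.31 and 9.18 in proliferation (-4.79 ± 0.13). A further 52 probes were detected on all 3 early differentiation arrays, which lay on another BeadChip, and on none of the 6 arrays compared here. In the other direction, 27 probes were detected on all 3 late arrays and on none of the other 6.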

How the results depend on the processing

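Over 21 alternatives no called gene was called in the opposite direction. Without normalization between arrays 1012 genes (1635 probes) were higher and 3728 (6448 probes) lower. This setting turned the sign of the median of 12 of the 45 lists with at least 10 tested members, and of 3 once the median of all genes (-0.35) was subtracted. An offset of 50, which compresses dim probes further, gave 1405 higher and 1293 lower genes (2098 and 2054 probes), and background subtraction with the 75th percentile gave 2428 and 2026 genes. Leaving out 1 array at a time gave 1924 to 2006 higher and 1759 to 1863 lower genes, and 3088 to 3315 and 3122 to 3278 probes. The methods' t-test called 1914 higher and 1743 lower genes unadjusted and 1787 and 1592 after Benjamini-Hochberg. With replicate number as a block 1993 genes were higher and 1851 lower. Among the named genes only the call of Lin7a (-1.75) changed with the block. Deviations of same-numbered arrays correlated at 0.04, 0.04 and 0.13, and those of differently numbered arrays at -0.15 to 0.09. The labels do not say whether the numbers pair the samples, and these small correlations do not decide it. The main model was fitted without pairing. Of 296 called named genes, 219 kept their call in every setting and 77 lost it in at least 1. Rpl23 was reversed with the mean of its probes (-0.093). Genes dim in a stage are given as bounds because 3 arrays at background do not set a level.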
